A study of Rattus norvegicus with 16 samples.

Results

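MicroRNA-126 (miR-126) is a short regulatory RNA of endothelial cells, the cells that line blood vessels, and both strands of its precursor were followed here in rat plasma and kidney after an iodinated contrast medium or saline. The members are the miRNAs named rno-miR-126 and rno-miR-126* on the array, taken by name, 2 of the 350 rat miRNAs that it read, together with the ratio of their signals. Both came from 24 male Sprague-Dawley rats that went 3 days without water and then received the diuretic furosemide at 10 mg/kg. Thereafter 12 rats were given the contrast medium Omnipaque (350 mg iodine per ml) at 10 ml/kg, the group named CI-AKI for contrast-induced acute kidney injury, and the 12 control rats were given saline at 10 ml/kg. Blood and kidney were taken at 8 h, and RNA of 3 rats was pooled for each array, which gave 4 pools in each of 4 groups (plasma control, plasma CI-AKI, kidney control and kidney CI-AKI) and 16 arrays. The controls thus share the dehydration and the furosemide with the treated rats, and no group without them was compared here. A p-value below measures the spread between pools of 3 rats.

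The miR-126 precursor lies inside the gene Egfl7, which encodes a protein secreted by endothelial cells, and the strands are cut from opposite arms of its hairpin. The strand from the 3′ arm, miR-126, is known for sustaining the response of endothelial cells to vascular growth factor by repressing Spred1 and Pik3r2, inhibitors of that signal, and for repressing the adhesion molecule Vcam1. The strand from the 5′ arm, miR-126*, is known for repressing Dlk1, an inhibitor of Notch signalling, in endothelial cells. In plasma, miR-126 is known to come from endothelial cells and from platelets.

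The mature strands are shown because they pair with different targets through the seed, bases 2 to 8, which is in capitals below. The array's names predate the arm suffixes, and its miR-126 was taken as the present rno-miR-126a-3p and its miR-126* as the present rno-miR-126a-5p, from the history of the names, without probe sequences to check this against. The sequences and positions are those of RefSeq on GRCr8.
rno-miR-126a-3p: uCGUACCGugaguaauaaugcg
rno-miR-126a-5p: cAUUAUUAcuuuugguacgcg
rno-miR-126b: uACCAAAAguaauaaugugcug
The 3p strand lies at chr3:29813219-29813240 and the 5p strand at chr3:29813182-29813202, both on the plus strand within the span of Egfl7, with 16 bases between them. A target site that pairs with the seed of the 3p strand reads CGGUACG, and with that of the 5p strand UAAUAAU. No other of the 693 mature rat miRNAs in the RefSeq table shares either seed, so neither strand has a seed family there. The third sequence, rno-miR-126b, is not on the array and comes from the minus strand at chr3:29813177-29813198, where 17 of its bases lie opposite the 5p strand and are complementary to it. Whether the probe of miR-126* reads only the 5p strand was not tested.

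MiR-126 was read by 2 probes with 10 spots each and miR-126* by 1 probe with 20 spots, and 0 of their spots were saturated. MiR-126 was detected on 16 of 16 arrays and miR-126* on 15. The exception for miR-126* was plasma control pool 4, where 2 of 20 spots were well above background. The fourth plasma pools stood apart in both groups, with 84 and 95 detected miRNAs against 156 to 211 on the other plasma arrays, and the strands' plasma differences, ratios and correlations and the counts and medians of marker lists are given below with and without them. The spots of the members were also noisier there: the coefficient of variation between spots of miR-126* was 49.8% in control pool 4 and 23.6% in CI-AKI pool 4, against 3.35% to 8.10% on the other 14 arrays. All plasma arrays lay on 1 slide and all kidney arrays on another, so tissue and slide cannot be told apart. Control and CI-AKI pools lay in alternate columns of the slides, and treatment and column cannot be told apart. The letter codes of the samples gave 6 of 8 letters opposite treatments in plasma and kidney. If a letter stands for a set of rats, treatment labels of 1 tissue are wrong for these 6, and the treatment comparisons below rest on the labels as given.

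In the kidney, neither strand passed the test between contrast medium and saline. The scaled signal of miR-126 was 1340, 1269, 1339 and 1156 in kidney control pools 1 to 4 and 1319, 1316, 1134 and 1316 in kidney CI-AKI pools 1 to 4. Scaled signal here is the background-corrected brightness averaged over the spots and probes of a miRNA and set to a common level across the 8 arrays of a tissue. The groups overlapped throughout, with 1 lower pool in each. Their means were 1276 ± 86.7 and 1271 ± 91.6 (SD, n = 4).

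The difference of miR-126 in kidney was -0.006 on the log2 scale (SE 0.079, 95% interval -0.185 to 0.172, adjusted p = 0.981 by limma with Benjamini-Hochberg adjustment over 176 miRNAs). Of the 176 miRNAs tested in this comparison 1.70% passed the threshold of an adjusted p of 0.05, and 0 of the 2 strands did. The neighbours of miR-126 in the order of p were miR-532-5p at -0.008 and miR-15b at -0.006, differences on the log2 scale of like size.

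MiR-126*, the strand from the other arm, read 86.4, 112.8, 119.3 and 100.9 in kidney control pools 1 to 4. In kidney CI-AKI pools 1 to 4 it read 129.4, 115.1, 85.2 and 119.1. The highest pool was a CI-AKI pool and so was the lowest. The mean scaled signals were 104.8 ± 14.5 and 112.2 ± 19.0 (SD, n = 4), a log2 difference of 0.092 (SE 0.145, 95% interval -0.236 to 0.42, limma adjusted p = 0.917). The next smaller p belonged to miR-98 at -0.058 and the next larger to let-7b at -0.047, neither past the threshold.

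In plasma the spread between pools was wider, and again neither strand passed the test for treatment. MiR-126 read a scaled signal of 139.7, 113.4, 158.0 and 100.01 in plasma control pools 1 to 4. In plasma CI-AKI pools 1 to 4 it read 107.8, 121.7, 126.2 and 112.3, all within the range of the controls. The means were 127.8 ± 26.1 and 117 ± 8.43 (SD, n = 4). The log2 difference was -0.107 (SE 0.24, 95% interval -0.642 to 0.428, limma adjusted p = 0.952 over 96 miRNAs), and 0.055 without both pool 4 arrays (adjusted p = 0.950).

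MiR-126* in plasma control pools 1 to 4 read 53.9, 41.6, 37.6 and 29.3, the last of these on the array that did not detect it. In plasma CI-AKI pools 1 to 4 it read 18.3, 29.5, 33.9 and 41.3. CI-AKI pool 1 lay below all control pools, and the other 3 lay within their range, where pools 2 and 3 overlapped the controls through control pool 4 alone. Without both pool 4 arrays the CI-AKI pools lay below the control pools, at 27.2 ± 8.02 against 44.4 ± 8.51 (SD, n = 3) on this scale, as did 8.33% of the miRNAs tested. The means were 40.6 ± 10.2 and 30.7 ± 9.59 (SD, n = 4), a log2 difference of -0.427 (SE 0.317, 95% interval -1.133 to 0.279, limma adjusted p = 0.941). With both pool 4 arrays left out and the others rescaled, it was -0.480 (SE 0.357, limma adjusted p = 0.530 over 182 miRNAs). The interval with all pools reaches from more than 1 log2 unit lower to slightly higher. In the plasma comparison limma called 0 of 96 miRNAs, or 0%, with 5 at an unadjusted p below 0.05, and neither strand was among the 5. By p, miR-126* stood at rank 15 of 96, between miR-98 at -0.656 and miR-30d at 0.476, and miR-126 at rank 67, between miR-101a at 0.146 and miR-30c at -0.114.

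The treatment difference was also compared between the tissues. For miR-126 it was larger in kidney than in plasma by 0.055 on the log2 scale (SE 0.207, 95% interval -0.385 to 0.495), with an adjusted p of 0.938 for limma's interaction term over 87 miRNAs. For miR-126* the same term was 0.473 (SE 0.34, 95% interval -0.25 to 1.196, limma adjusted p = 0.929). Without both plasma pool 4 arrays the terms were -0.035 for miR-126 and 0.599 for miR-126* (limma adjusted p = 0.966 and 0.438). Neither term passed, in a comparison where 1.15% of miRNAs did. Those next to miR-126 in p were miR-27a at 0.113 and miR-29c at -0.105, and those next to miR-126* were miR-26b at 0.453 and miR-30d at -0.472.

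**Figure D1:**
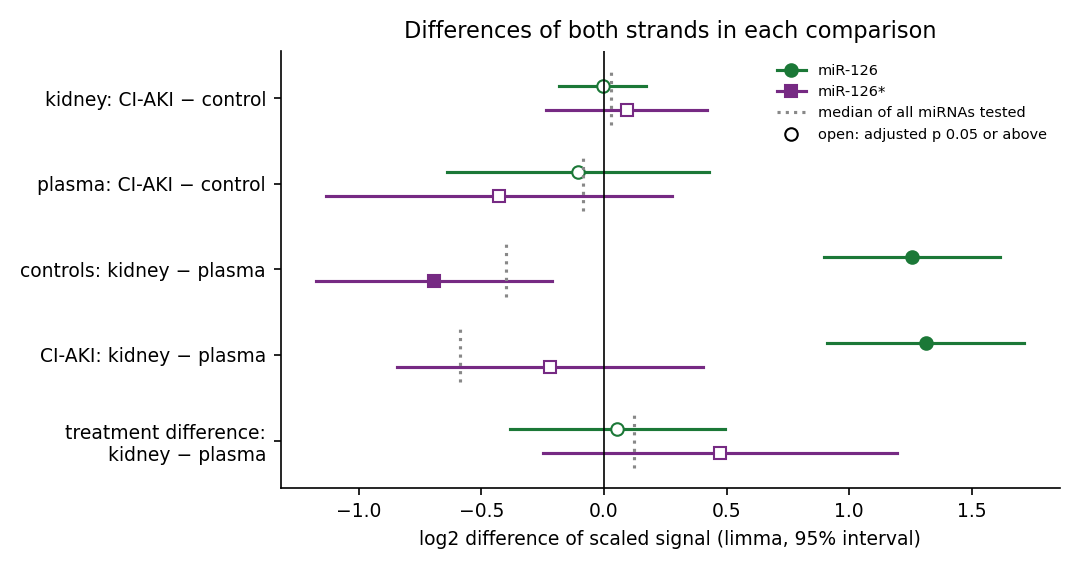
Log2 differences of scaled signal of miR-126 (circles) and miR-126* (squares) in each comparison, with limma's 95% intervals as lines (x axis, log2 units), 4 pools a group. Filled symbols passed an adjusted p of 0.05 and dotted lines mark the median of all miRNAs tested; the treatment differences lie across 0 and miR-126 lies at 1.26 and 1.31 in the comparisons of kidney with plasma.

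Between the tissues, miR-126 was higher in kidney than in plasma in both treatments. On a scale set over all 16 arrays, from the 65 miRNAs that every array detected, miR-126 read 289, 233, 315 and 206 in plasma control pools 1 to 4 and 222, 273, 260 and 233 in plasma CI-AKI pools 1 to 4. On the same scale it read 631, 611, 632 and 584 in kidney control pools and 624, 636, 573 and 612 in kidney CI-AKI pools. Every kidney pool lay above every plasma pool, as did 33.7% of the miRNAs tested in controls and 28.7% in CI-AKI. In order of level, kidney control was at 614 ± 22.6, kidney CI-AKI at 611 ± 27.6, plasma control at 261 ± 49.6 and plasma CI-AKI at 247 ± 23.4 (SD, n = 4), and the neighbours within a tissue differed by less than their spread.

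In control rats the kidney signal of miR-126 was 2.39-fold that of plasma, a log2 difference of 1.26 (SE 0.155, 95% interval 0.897 to 1.615, limma adjusted p = 1.04e-04 over 178 miRNAs). In CI-AKI rats it was 2.48-fold, a log2 difference of 1.31 (SE 0.179, 95% interval 0.908 to 1.714, limma adjusted p = 1.03e-04 over 181 miRNAs). Such calls were common: of the miRNAs tested in controls 77.5% passed, 33.1% higher and 44.4% lower in kidney, and of those tested in CI-AKI 74.6% passed, 28.2% higher and 46.4% lower. MiR-126 ranked 78 of 178 and 65 of 181 by p, next to miR-10b at 1.78 and miR-375 at -1.72 in controls and to let-7a at 2.41 and miR-99b at 2.34 in CI-AKI. In bulk kidney samples the number of cells of a type and their RNA per cell cannot be told apart. The plasma signal measures neither.

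The size of the difference between kidney and plasma depended on the level to which the arrays were set, and the reason was not tested. Over 9 ways of scaling and summarising, the median difference of all miRNAs moved from -1.195 to 1.359 on the log2 scale in controls and from -2.062 to 1.479 in CI-AKI. Relative to that median miR-126 was higher in kidney under all 9, by 1.083 to 2.029 in controls and by 1.052 to 2.564 in CI-AKI. Its call was lost in controls without scaling, at 3.291 (limma adjusted p = 0.0515), and in CI-AKI with another background correction (normexp), at 0.501 (limma adjusted p = 0.277). Without both plasma pool 4 arrays it was 1.47 in controls and 1.43 in CI-AKI. Each probe of miR-126 taken alone also passed, at 1.68 and 1.002 in controls and at 1.67 and 1.09 in CI-AKI.

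MiR-126* had no tissue difference whose direction held over the scalings. On the 16-array scale it read 111, 85.6, 74.8 and 60.5 in plasma control pools 1 to 4 and 37.8, 66.1, 69.8 and 85.5 in plasma CI-AKI pools. In kidney control pools it read 40.7, 54.3, 56.3 and 51.0, and in kidney CI-AKI pools 61.2, 55.7, 43.0 and 55.4. The control groups did not overlap, kidney being lower, as for 44.9% of the miRNAs tested, and the CI-AKI groups did overlap. Plasma control stood at 83.1 ± 21.5, plasma CI-AKI at 64.8 ± 19.9, kidney CI-AKI at 53.8 ± 7.68 and kidney control at 50.6 ± 6.96 (SD, n = 4), and each neighbour in that order overlapped the next.

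In controls miR-126* was lower in kidney by -0.692 on the log2 scale (SE 0.208, 95% interval -1.174 to -0.21, limma adjusted p = 0.015), but the sign turned to 0.188 with quantile normalization, 0.118 in the authors' deposited values and 1.343 without scaling, none of these past the threshold. It was at -0.515 without both plasma pool 4 arrays, where it still passed. In this comparison 44.4% of the miRNAs tested were called lower in kidney. In CI-AKI the difference was -0.219 (SE 0.277, 95% interval -0.843 to 0.405, limma adjusted p = 0.481), and 0.084 without both plasma pool 4 arrays. Its neighbours in p were miR-10a-3p at 1.06 and miR-151 at 3.05 in controls and miR-338 at -0.853 and miR-193 at 0.227 in CI-AKI. Relative to the median of all miRNAs, miR-126* lay between -0.519 and 0.086 in controls over the 9 settings and between 0.135 and 0.482 in CI-AKI.

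**Figure D2:**
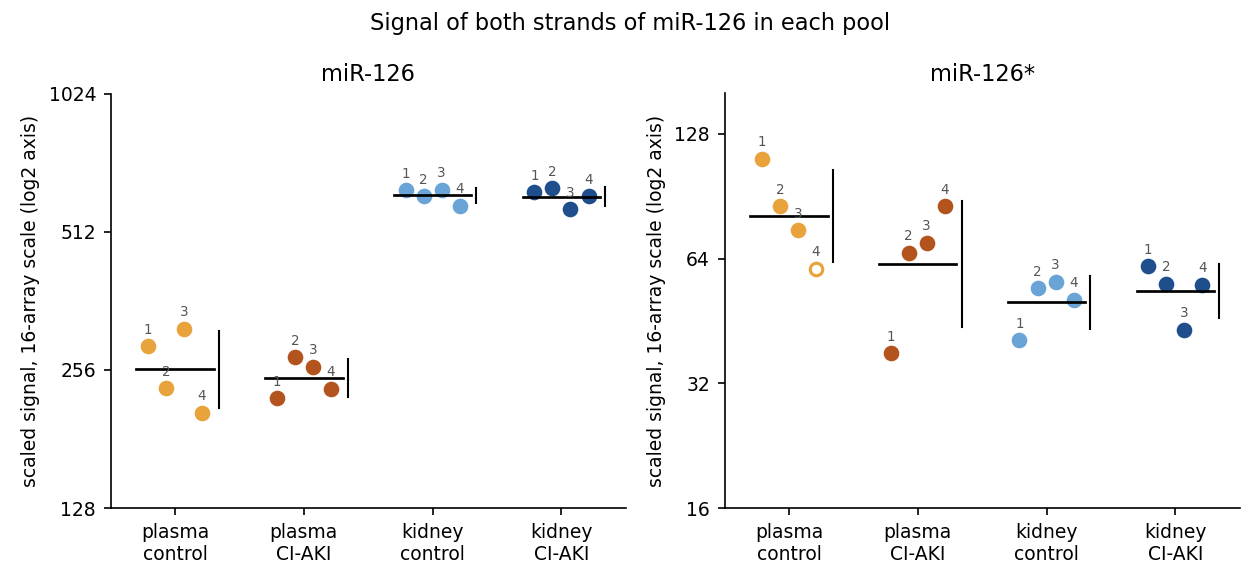
Scaled signal of miR-126 (left) and miR-126* (right) in each pool on the 16-array scale (y axes, log2-spaced), numbered by pool, with the geometric mean as a horizontal line and ± 1 SD of the log2 values as a vertical line; the open point is the array on which miR-126* was not detected. MiR-126 lies between 206 and 315 in plasma and between 573 and 636 in kidney, while the groups of miR-126* lie closer together.

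**Figure D3:**
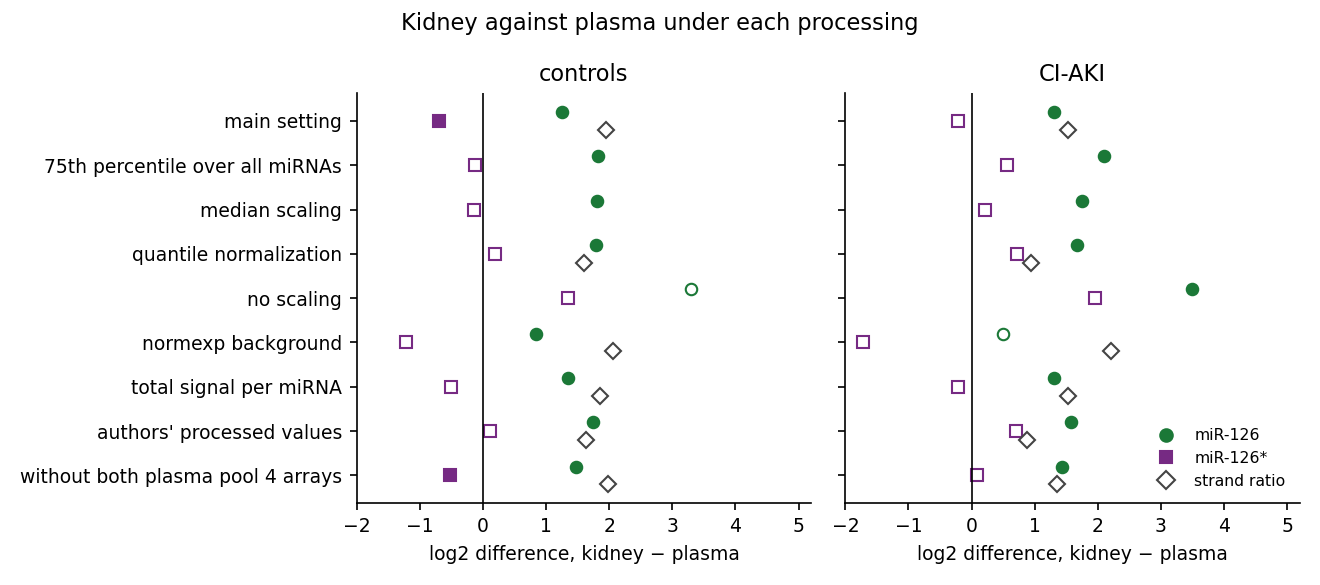
Log2 difference of kidney against plasma (x axes) for miR-126, miR-126* and their ratio under each way of processing (y axis), in controls (left) and CI-AKI (right); filled symbols passed an adjusted p of 0.05, which the exact tests of the ratio reached under none of these. MiR-126 and the ratio stay to the right of 0, and miR-126* lies on either side; the ratio is drawn only where the setting can change it.

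The ratio of miR-126 to miR-126* within an array is left as it is where an array is scaled by 1 factor, though not by quantile normalization, and it separated the tissues on the scanner signals. It is a ratio of signals, not of molecules, because the probes differ in brightness, and only its change between samples can be read. The ratio was 2.59, 2.73, 4.20 and 3.41 in plasma control pools 1 to 4 and 5.88, 4.13, 3.72 and 2.72 in plasma CI-AKI pools 1 to 4. It was 15.5, 11.3, 11.2 and 11.5 in kidney control pools 1 to 4 and 10.2, 11.4, 13.3 and 11.0 in kidney CI-AKI pools 1 to 4. The lowest kidney pool, at 10.2, lay above the highest plasma pool, at 5.88.

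The mean log2 ratio was 3.61 ± 0.23 in kidney and 1.67 ± 0.32 in plasma of control rats (SD, n = 4), a difference of 1.95 or 3.86-fold. In CI-AKI rats it was 3.52 ± 0.16 and 1.99 ± 0.46 (SD, n = 4), a difference of 1.53 or 2.89-fold. Each gave p = 0.0286 in an exact permutation test, two-sided, the smallest that 70 labellings can give. The Benjamini-Hochberg value over the 4 exact tests of the ratio was 0.0571 for both, so neither passed a threshold of 0.05. In controls the groups also lay apart with quantile normalization, at 1.602, and in the authors' deposited table, at 1.629. In CI-AKI these gave 0.948 and 0.885, and there the groups overlapped (exact permutation p = 0.114 each, adjusted p = 0.229 and 0.152). Without both plasma pool 4 arrays the differences were 1.98 and 1.35, still with no overlap (exact permutation p = 0.0571 each, the smallest for 4 against 3 pools).

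The ratio did not separate the treatments in either tissue. In kidney the log2 ratio differed by -0.10 between CI-AKI and control pools (exact permutation test, p = 0.514, adjusted p = 0.514). In plasma it differed by 0.32 (exact permutation test, p = 0.314, adjusted p = 0.419), and by 0.54 without both pool 4 arrays (exact permutation test, p = 0.3). The treatment difference of the log2 ratio in kidney was -0.418 relative to that in plasma (exact permutation of treatment within each tissue, p = 0.2), and -0.634 without both plasma pool 4 arrays (exact permutation p = 0.117). In plasma CI-AKI, pool 1 had the highest ratio and pool 4 the lowest.

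The probes of miR-126 themselves did not keep 1 ratio across tissues. The brighter probe read 3.08 to 3.83 times the dimmer in plasma pools and 2.19 to 2.50 times in kidney pools, with no overlap. Probe ratios of other miRNAs were not examined, so whether such a shift is particular to miR-126 was not tested. The log2 probe ratio in kidney minus that in plasma was -0.58 in controls and -0.49 in CI-AKI (exact permutation p = 0.0286 each, adjusted 0.0571 over 4 tests), and -0.52 and -0.48 without both plasma pool 4 arrays, with no overlap. The part of this in the strand ratio was not tested beyond taking each probe alone. With the dimmer probe alone the strand ratio was higher in kidney by 2.37 in controls and 1.89 in CI-AKI, and with the brighter alone by 1.80 and 1.40, in log2 units; leaving out both plasma pool 4 arrays gave 2.36 and 1.70, and 1.84 and 1.22. Kidney and plasma pools did not overlap with either probe.

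**Figure D4:**
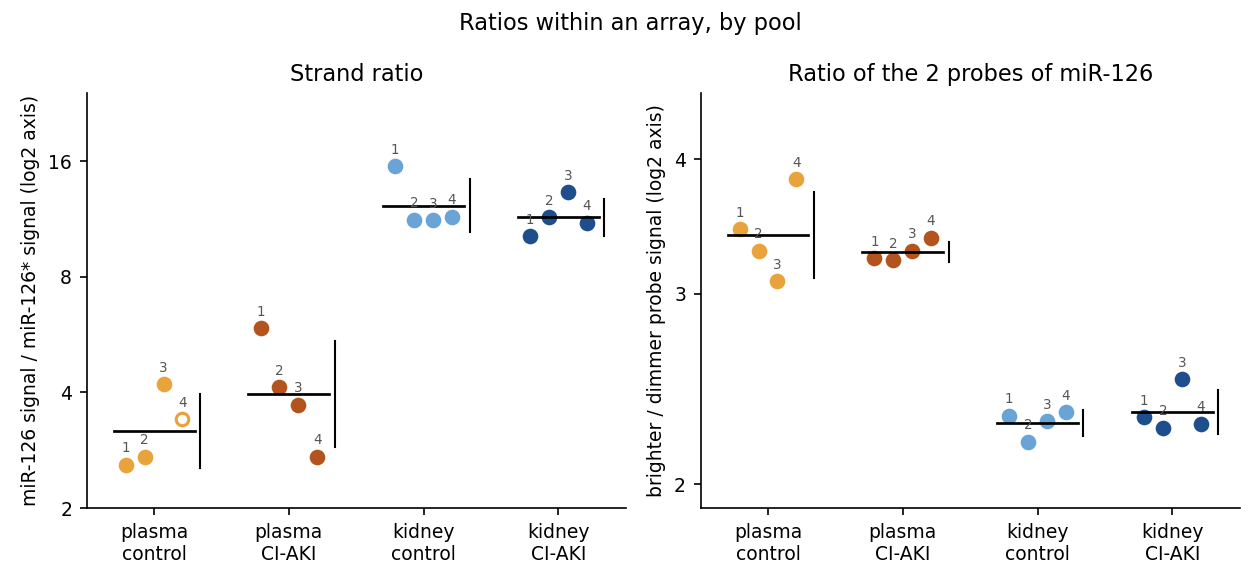
Left, signal of miR-126 over miR-126* in each pool; right, signal of the brighter over the dimmer probe of miR-126 (y axes, log2-spaced), with geometric means as horizontal and ± 1 SD of the log2 values as vertical lines; the open point marks the array that did not detect miR-126*. The strand ratio lies between 2.59 and 5.88 in plasma and between 10.2 and 15.5 in kidney, and the probe ratio between 3.08 and 3.83 and between 2.19 and 2.50.

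Other miRNAs read on both strands were set beside miR-126, a comparison chosen once the values were known. Pairs of a miRNA and its star strand were taken where both were detected on every array compared, with plasma pool 4 left out, and their log2 ratios were tested together by limma. In controls the ratio was higher in kidney for 6 of 11 pairs, or 54.5%, and lower for 0. MiR-126 was 1 of the 6, at 1.98 (SE 0.25, limma adjusted p = 5.52e-06), between miR-322 at 2.50 and miR-7a at 1.75. The other 3 were let-7d at 6.47, miR-151 at 3.60 and miR-140 at 1.25.

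In CI-AKI the ratio was higher in kidney for 5 of 9 pairs, or 55.6%. MiR-126 stood at 1.35 (SE 0.23, limma adjusted p = 2.64e-04), below let-7d at 6.33, miR-151 at 4.13, miR-322 at 3.17 and miR-140 at 1.85. The pair of miR-30e was lower, at -0.69 (limma adjusted p = 0.0441). A higher ratio in kidney is thus shared by several pairs. For treatment 0 of 13 pairs in kidney and 0 of 9 in plasma passed limma's threshold, and 0 of either had an unadjusted p below 0.05, with miR-126 at -0.10 (SE 0.13, adjusted p = 0.918) and 0.54 (SE 0.49, adjusted p = 0.511). In plasma limma gave all 9 pairs the same SE of 0.49, a value pooled over the pairs. The log2 ratio of miR-126 itself had SDs of 0.35 in CI-AKI and 0.38 in controls there (n = 3).

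**Figure D5:**
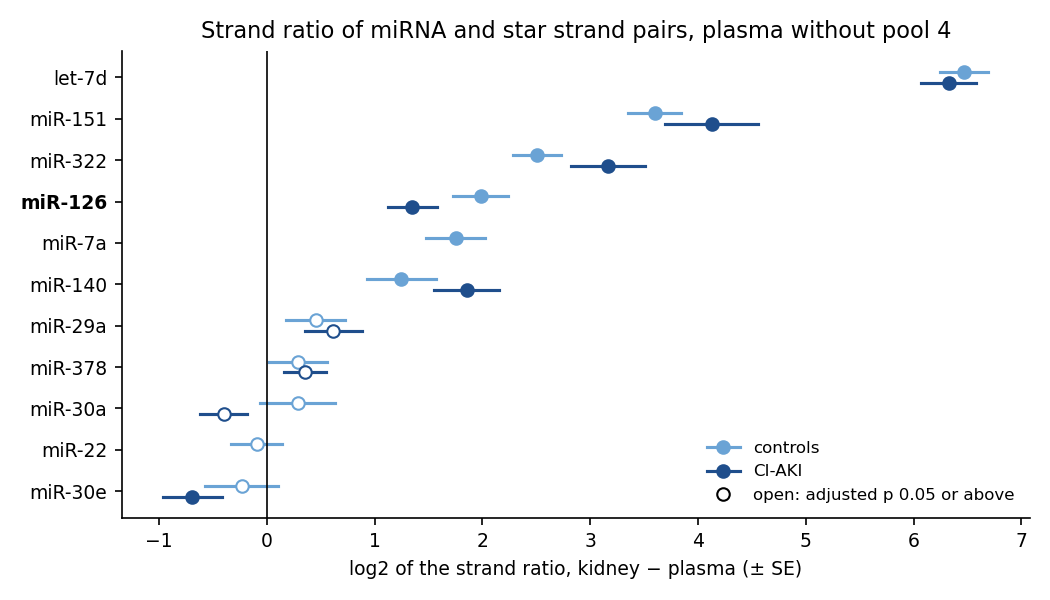
Log2 difference of the strand ratio between kidney and plasma (x axis, ± SE by limma) for each pair of a miRNA and its star strand (y axis), 4 kidney against 3 plasma pools, in controls and CI-AKI; filled points passed an adjusted p of 0.05. MiR-126 at 1.98 and 1.35 lies among the pairs with a higher ratio in kidney, below let-7d at 6.47 and 6.33.

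The strands were compared with each other over the 8 pools of a tissue. In kidney the log2 scaled signals had r = 0.537 (exact permutation p = 0.142, adjusted p = 0.213 over 2 tissues) and rho = 0.476 (exact permutation p = 0.243). The 2 arrays farthest from the median of miR-126 were kidney control pool 4 and kidney CI-AKI pool 3. Without them r was -0.264 (exact permutation p = 0.519). Over the 6 pools left miR-126 ran only from 1269 to 1340, so they can say little of the correlation. For deviations from the group means r was 0.558 in kidney and 0.429 in plasma. In plasma r was 0.492 (exact permutation p = 0.213, adjusted p = 0.213) and rho 0.548 (exact permutation p = 0.171), with r = 0.29 without plasma control pools 1 and 3 and r = 0.587 without both pool 4 arrays.

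The miRNAs that followed each strand most closely across the same pools are given as a description, over 8 arrays that share their scaling. Over 162 miRNAs in kidney the nearest to miR-126 were miR-542-3p at r = 0.905, miR-125b-5p at 0.883, miR-93 at 0.882, miR-100 at 0.86 and miR-17-5p at 0.853, and miR-126* stood at rank 46. The nearest to miR-126* in kidney were miR-128 at 0.881, miR-22* at 0.859, miR-10b at 0.857, miR-30c-2* at 0.855 and miR-148b-3p at 0.839. In plasma the values for miR-126 were lower, from let-7d* at 0.631 through miR-27b at 0.554, miR-25 at 0.554 and miR-139-3p at 0.531 to miR-192 at 0.491 among 73 miRNAs, the last level with miR-126* at 0.492, which was not compared there because plasma control pool 4 did not detect it. With both pool 4 arrays left out these 5 stood at 0.451, 0.34, 0.291, 0.452 and 0.483, all below miR-126* at 0.587. For miR-126* in plasma they were miR-26b at 0.811, miR-215 at 0.777, miR-107 at 0.746, miR-23b at 0.699 and miR-223 at 0.691 among 74, and without both pool 4 arrays at 0.933, 0.886, 0.721, 0.917 and 0.724.

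The strands were then set beside other miRNAs known in endothelial cells. The list held both strands, miR-221 and miR-222, which act on growth and Kit signalling there, and miR-23a, miR-24, miR-27a and miR-27b of the miR-23 clusters. MiR-23b, the partner of miR-27b, was not in the list and was higher in kidney, at 1.10 in controls and 1.39 in CI-AKI (limma adjusted p = 1.92e-05 and 7.50e-05), and is named here after its values were seen. In controls 1 of the 8 members, miR-126, was higher in kidney than in plasma and 6 were lower, beside 33.1% and 44.4% of all miRNAs tested, with a median log2 difference of -0.992 beside -0.398 for all 178 tested. The lower members besides miR-126* were miR-23a at -2.07, miR-27a at -1.51, miR-222 at -1.35, miR-24 at -1.29 and miR-221 at -0.65, and miR-27b stood at 0.17 (limma adjusted p = 0.443). In CI-AKI 1 of 8 was higher and 5 were lower, beside 28.2% and 46.4% of all, with a median of -0.780 beside -0.588, miR-222 at -1.80 and miR-23a at -1.69 being the farthest. The direction of the list depended on the scaling as well. Over the 9 settings its median ran from -1.195 (normexp) to 1.043 (no scaling) in controls and from -1.077 to 1.40 in CI-AKI. In controls no scaling left 0 of the list called, beside 57 of all 178 miRNAs. Relative to the median of all miRNAs the list's median lay between -0.594 and 0.00 in controls and between -0.773 and 0.985 in CI-AKI, the last with normexp. Leaving out both plasma pool 4 arrays, 2 were higher and 5 lower in controls (median -0.747 beside -0.683 for all) and 2 and 4 in CI-AKI (-0.624 beside -0.561), miR-27b being the second. Of all miRNAs tested in that fit, 36.9% were called higher and 53.7% lower in controls, and 31.3% and 49.2% in CI-AKI.

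For treatment 0 of the 8 endothelial members passed limma's threshold in kidney, with 3 at an unadjusted p below 0.05, beside 6.25% of all miRNAs, and 0 of 7 tested passed in plasma, with 0 at such a p. The 3 were miR-27a at 0.25 (limma adjusted p = 0.194), miR-24 at 0.19 (0.415) and miR-27b at 0.15 (0.6), all slightly higher in CI-AKI kidney and none of them a strand of miR-126. Over the 9 settings the number at such a p ran from 0 without scaling to 3, with 1 under quantile normalization, normexp, the brightest probe and the deposited table. The median of the endothelial members was 0.087 in kidney beside 0.028 for all 176 miRNAs and -0.233 in plasma beside -0.086 for all 96, and without both plasma pool 4 arrays 0.045 beside 0.257, with 0 of 8 called and 0 at an unadjusted p below 0.05 by limma. MiR-23a was at 0.08 in kidney and -0.34 in plasma, and in plasma miR-24 was at -0.23 and miR-27a at 0.09, none past the threshold.

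Of 12 angiogenesis miRNAs outside that list tested in controls, where 33.1% of all miRNAs were called higher and 44.4% lower, 2 were higher in kidney. They were miR-378 at 1.68 and miR-218, which targets the receptor Robo1, at 4.82. No plasma array detected miR-218, so it entered the tests of both treatments through kidney alone, and its difference is against undetected signal. Of the other 10, 7 were lower, among them miR-92a at -3.83, miR-18a at -3.44, miR-19a at -3.42, miR-17-5p at -2.32 and miR-20a at -2.23 of the miR-17-92 cluster, and miR-16 at -1.93, and the median was -2.08 beside -0.398 for all. In CI-AKI 2 of 10 were higher and 5 lower, beside 28.2% and 46.4% of all, with a median of -1.085 beside -0.588. Without scaling 2 were called higher and 0 lower in controls, and 3 and 0 in CI-AKI. Of all miRNAs tested in that setting, 45 of 178 were called higher and 12 lower in controls, and 67 and 15 of 181 in CI-AKI. With those pool 4 arrays left out, 36.9% of all miRNAs tested were called higher and 53.7% lower in controls, and 31.3% and 49.2% in CI-AKI. Beside these, 3 of 13 angiogenesis miRNAs were higher and 8 lower in controls (median -1.825) and 3 and 8 of 12 in CI-AKI (median -1.563). Over the 9 settings the median ran from -2.08 to -0.045 in controls and from -1.799 to 1.059 in CI-AKI, so that in CI-AKI its sign turned. MiR-210, the hypoxia miRNA, was at -0.05 and -0.12 and passed in neither. For treatment 0 of 11 passed in kidney (median -0.013) and 0 of 8 in plasma (median -0.155), 0 of them with an unadjusted p below 0.05 in limma. The bright miR-16 was at -0.01 and -0.17 and miR-130a at -0.02 and -0.14. Without pool 4, 0 of 12 passed in plasma and 2 stood at such a p, with a median of 0.022 beside 0.257 for all 182. The share of all 182 at such a p is not given here, so the 2 cannot be set against it.

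Since blood cells also carry miR-126, their markers are given beside it. Of the platelet list, 5 of 6 miRNAs were detected on every array of each group. The list's summed scaled signal ran from 7035 to 13897 in plasma and from 4658 to 5881 in kidney. The kidney sum rests largely on miR-21 and miR-26a, at mean log2 signals of 11.5 and 10.6 in kidney controls, against 6.24 for miR-223. Whether platelets gave any of the kidney signal was not tested. In controls 4 of 5 platelet miRNAs tested were lower in kidney, such as miR-223 at -5.61, miR-24 at -1.29, miR-199a-3p at -1.24 and miR-21 at -0.66, and miR-26a was higher at 0.82. In CI-AKI 4 of 5 were lower. Here and for the lists that follow, 44.4% of all miRNAs tested were called lower and 33.1% higher in controls, and 46.4% and 28.2% in CI-AKI. Without both plasma pool 4 arrays 3 of 5 platelet miRNAs were lower and 1 higher in controls (median -0.878) and 2 and 0 in CI-AKI (median -0.505). In that fit 53.7% of all miRNAs tested were called lower and 36.9% higher in controls, and 49.2% and 31.3% in CI-AKI. Those shares also belong beside the counts without pool 4 of the lists that follow. The platelet median turned sign with the scaling, from -1.244 to 0.791 in controls and from -0.863 to 1.479 in CI-AKI. MiR-24 stands in the endothelial list too, miR-223 in that of leukocytes and miR-16 among the angiogenesis miRNAs. Erythroid miRNAs, miR-451, miR-144 and miR-16, were lower in kidney for 3 of 3 in both treatments, with medians of -4.085 and -4.43, and their summed signal was 5275 to 17190 in plasma and 792 to 898 in kidney.

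Leukocyte miRNAs were lower in kidney for 5 of 5 in controls and 4 of 5 in CI-AKI, led by miR-223, miR-150 at -5.46 and miR-142-5p at -4.50 in controls. In the fit without plasma pool 4, 3 of 3 erythroid miRNAs were lower in both treatments (medians -3.933 and -4.242), and 4 of 5 leukocyte miRNAs (medians -4.269 and -4.553). The erythroid and leukocyte medians were below 0 under all 9 settings, at -2.05 or lower in controls and -2.25 or lower in CI-AKI, where miR-126 was higher in kidney. The part of blood cells in the plasma signal of either strand was not tested. For treatment 0 members of the 3 blood lists passed limma's threshold in either tissue. At an unadjusted p below 0.05 stood miR-24 in kidney and miR-199a-3p in plasma, at -0.72. The medians of the 3 lists ran from -0.033 to 0.127 in kidney and from -0.233 to -0.088 in plasma; without plasma pool 4 those in plasma ran from -0.195 to 0.081, with 0 members called and 0 at an unadjusted p below 0.05.

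Tubule and liver miRNAs were set beside the tissue labels. Both lists were chosen with earlier results of these data known, so this is no independent check. It does not bear on the treatment labels. Tubule miRNAs were higher in kidney for 6 of 8 in both treatments, such as miR-200a at 4.47 and miR-200c at 2.36 in controls, and 1 was lower, miR-30d at -0.61. The fit without plasma pool 4 had 6 of 8 higher in both, and 0 lower in controls and 1 in CI-AKI. All 8 were detected on every kidney array and 3 of 8 on every plasma array. The 3 were miR-192, at 0.66 in controls, miR-30a, at 1.33, and miR-30d, at -0.61. With all pools the rest of the list, miR-200a and miR-200c among them, entered the tests through kidney alone. Their part of the count thus rests on miRNAs chosen for detection in kidney. The liver miRNA miR-122 was detected on 0 kidney arrays. The other 2 of that list, which also stand in the tubule list, were higher in kidney, miR-192 at 0.66 and miR-194 at 5.60 in controls. In the main setting the liver counts were 2 higher and 1 lower in both treatments, also without pool 4. Over the 9 settings 0 to 2 liver miRNAs were called higher in either treatment, and 1 lower. Tubule miRNAs called higher ran from 3 to 7 in controls and from 0 to 7 in CI-AKI. Of the smooth muscle and stroma miRNAs 3 of 4 were lower in kidney in both treatments, namely miR-143, miR-145 and miR-214, and miR-199a-5p was higher in controls, at 0.74, with 0.65 in CI-AKI (limma adjusted p = 0.313). Their median changed sign without scaling, and without pool 4 the counts were the same. None of the tubule, liver, or muscle and stroma members passed limma's threshold for treatment, and 0 had an unadjusted p below 0.05. Without plasma pool 4, 2 of 7 tubule miRNAs and 1 of 4 of muscle and stroma stood at such a p in plasma. None of them was called, as for all 182 miRNAs tested there. The share of all miRNAs at such a p in that fit is not given here, so these counts cannot be set against it.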

How the data were processed

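MiRNAs were measured in 16 pools on 1-colour Agilent rat arrays. The authors' deposited scanner files hold intensity per spot, extracted and background-subtracted with Agilent Feature Extraction 10.7.3.1, per the file headers, with 0 or 1 flags for detection, outliers and saturation. A second table from the authors holds log2 values with a median of 2.28 in each column and near-equal quantiles over arrays; how it was scaled is not given in the sources used here, and it served as an alternative. RNA isolation and labelling used kits, per the labels' protocols.

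Intensities were averaged over unflagged spots, then over probes. The scaling factor of an array was the 75th percentile of the miRNAs that every compared array detected (163 in kidney, 74 in plasma, 65 over both); values were put back on a common level and floored at the median of the lowest detected signals (1.79, 0.976 and 1.31), then log2 was taken. A miRNA was tested where every array of at least 1 group detected it, by limma 3.58.1 under R 4.3.3 (two-sided, Benjamini-Hochberg); the scripts were tested on simulated data. Ratios and correlations used exact permutation tests (scipy 1.17.1). The members and lists were chosen with earlier results of these data known. Named are both strands, the members of each of 8 lists past the threshold up to 6 each way or else the 3 brightest, the 5 miRNAs that follow each strand most closely, and the neighbours of each strand in p; in the larger lists examples are given. The lists were endothelial, angiogenesis, platelet, erythroid, leukocyte, tubule, smooth muscle and stroma, and liver; miR-15a, miR-486 and miR-155 were not found by name.

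In plasma the deviations of same-numbered control and CI-AKI pools had correlations of 0.224, 0.488, 0.619 and 0.603. In kidney these were 0.204, 0.588, -0.1 and 0.147. Between kidney and plasma pools of the same number they ran from 0.005 to 0.324 in controls and from -0.096 to 0.159 in CI-AKI. Whether same-numbered pools are paired by design was not tested, since the sample titles give only a number. Same numbers also lie at neighbouring slide positions, and the plasma arrays with the fewest detected miRNAs share a number. The main tests treated the pools as unpaired. Alternatives covered scaling, background, spot and probe summaries, the deposited table, filters, blocks and pools left out. Of normexp, the median signal served, since the files have no mean signal. Array number limits the precision.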

Additional observations from a re-analysis of the deposited data

Results flagged for a closer look

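Of 16 groups of 4 pools looked at, 2 held a pool far from its other 3, and chance alone flags about 1 in 20 groups. In kidney CI-AKI, pool 3 had the lowest miR-126, at 10.147 on the log2 scale of scaled signal, while the other 3 pools were nearly equal, and the gap took up 0.986 of the range. That array also had the lowest unscaled signal of miR-126 among the kidney arrays, 680 against 1079 to 1590. The low unscaled signal was not particular to miR-126. The array's total signal of miRNAs was the lowest in kidney, 46951 against 68651 to 96006, and so was its unscaled miR-126*, at 51.1. In kidney controls, pool 1 had the highest log2 strand ratio, at 3.956, with a gap of 0.938 of the range. Its miR-126* was the lowest of the kidney control pools, at 86.4, and its miR-126 was among the 2 highest. Without it the ratio of kidney controls against plasma controls was 1.834, and that of kidney CI-AKI against control was 0.016.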

How the results depend on the processing

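Values here are log2 differences unless they are counts of calls. MiR-126 was higher in kidney than in plasma under every alternative, and passed in all but 2: 3.291 in controls without scaling and 0.501 in CI-AKI with normexp. Leaving out each pool in turn gave 1.209 to 1.353 in controls and 1.262 to 1.361 in CI-AKI. MiR-126* turned to higher in kidney controls with quantile normalization (0.188), without scaling (1.343) and in the deposited table (0.118), and lost its call with the 75th percentile of all miRNAs (-0.131), median scaling (-0.136), normexp (-1.226), total signal (-0.507) and within slide row 2 (-0.329). With pool number as a replicate block it was at -0.692 with a limma adjusted p of 0.0504. Pool numbers come from the sample titles, which state no pairing, and the block moved no other call of a strand. In CI-AKI it turned to 0.723 (quantile), 1.961 (no scaling), 0.565 (75th percentile of all), 0.213 (median), 0.698 (deposited table), 0.224 (within slide row 1) and 0.084 (without both plasma pool 4 arrays). The filter to miRNAs detected on every array gave no value of miR-126* where plasma control pool 4 entered.

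Treatment differences stayed uncalled, and their signs turned as follows. In kidney miR-126 was at 0.024 with the 75th percentile of all miRNAs, 0.031 in the deposited table, 0.014 within slide row 1, 0.0035 with the brighter probe alone and -0.053 to 0.032 with 1 pool left out, and miR-126* at -0.123 within slide row 2; control pool 1 (0.018) and CI-AKI pool 3 (0.032) were the pools whose absence turned miR-126. In plasma miR-126 was at 0.093 (quantile), 0.109 (median), 0.278 (normexp), 0.195 (deposited table), 0.055 (without both pool 4 arrays) and -0.157 to 0.0025 with 1 pool left out (turned without control pool 3), and miR-126* at 0.522 (normexp) and 0.172 (row 2). The interaction of miR-126 was at -0.119 (quantile), -0.070 (median), -0.333 (normexp), -0.029 (total signal), -0.021 (brightest probe), -0.164 (deposited table), -0.035 (without both plasma pool 4 arrays), -0.0086 (dimmer probe alone) and -0.042 to 0.104 with 1 pool left out (turned without plasma control pool 1, 3 or 4), and that of miR-126* at -0.490 (normexp) and -0.334 (row 2).

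The strand ratio was higher in kidney under every alternative, at 1.582 to 2.314 in controls and 0.885 to 2.217 in CI-AKI, and with 1 pool left out at 1.834 to 2.084 and 1.350 to 1.720. With quantile normalization, added after the data were seen, it was 1.602 and 0.948. Only limma over the pairs took it past the threshold, at 1.983 and 1.350. Its treatment difference turned to 0.096 in kidney (row 2) and to -0.244 (normexp) and -0.251 (row 2) in plasma, with -0.171 to 0.016 in kidney with 1 pool left out. The correlation of the strands was 0.957 in kidney and 0.981 in plasma without scaling and 0.967 in plasma with normexp. Calls over all miRNAs in kidney numbered 1 with quantile normalization, without scaling, within slide row 2 and in 1 fit of 4 groups, and 0 with normexp and on miRNAs every array detected; in plasma 1 within slide row 1. Between tissues they numbered 57 (no scaling), 72 (normexp) and 56 (detected on every array) in controls and 82, 69 and 70 in CI-AKI. The interaction had 0 calls with quantile normalization, no scaling, normexp, detection on every array and within either row, 2 without both plasma pool 4 arrays and 1 to 4 with 1 pool left out (4 without plasma CI-AKI pool 2, 2 without plasma control pool 4). Calls higher in kidney were 42.8% of calls in controls and 37.8% in CI-AKI, and ranged from 22.2% and 7.25% with normexp to 78.9% and 81.7% without scaling. The causes of these changes were not tested.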
